A study of Arabidopsis thaliana with 9 samples.

Results

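Transcripts of 10 *Arabidopsis* genes that answer to or remove cytokinin were followed in rosette leaves from a weed-free control and from 2 low R:FR environments, a biological and an artificial source. The genes were taken by locus from the tables of TPM, the transcript level corrected for gene length and library size: the type-A response regulators ARR4 (AT1G10470), ARR5 (AT3G48100), ARR6 (AT5G62920), ARR7 (AT1G19050), ARR8 (AT2G41310), ARR9 (AT3G57040) and ARR15 (AT1G74890), and the cytokinin oxidases CKX4 (AT4G29740), CKX5 (AT1G75450) and CKX6 (AT3G63440). These are 10 of the 37363 genes listed, and all 10 were among the 19384 genes tested, those with at least 0.5 TPM in at least 3 libraries. Wild type plants of ecotype Columbia were grown at a red to far-red ratio of 1.4 per the labels and harvested at 4 weeks. Weed-free plants stayed at that ratio, while plants of the 2 other treatments spent the last 1 of the 4 weeks at a ratio of 0.3, set by light reflected from a surrogate weed (biological low R:FR, called weedy light here) or by far-red LEDs (artificial low R:FR, called LED light). Each treatment had 3 libraries, and each library pooled leaves of 3 plants, so that the p-values measure the spread between pools. Per the study the weed and the LEDs were in different chambers. Between weedy and LED light the effects of chamber and source therefore cannot be told apart. The methods put a divider between weed-free and weedy plants and do not say whether weed-free plants stood with the LEDs. Chamber and light may thus not be separable in LED light against weed-free either.

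Cytokinins are adenine-derived hormones that promote cell division and leaf growth and delay leaf senescence. Membrane histidine kinases bind the hormone and pass a phosphate through phosphotransfer proteins to type-B response regulators, which are transcription factors. Among their targets are the type-A response regulators, which lack the DNA-binding part and dampen the signal, so that their transcripts are widely used as a readout of cytokinin response. Cytokinin oxidases cleave the side chain of the hormone and end its action. Far-red enriched light lowers the active pool of phytochrome B, a photoreceptor to which ARR4 protein binds, and in young leaf primordia CKX6 has been linked to the arrest of growth under canopy shade.

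The far-red treatments were seen in the libraries. Of 4 shade response genes fixed as a check (ATHB2, PIL1, IAA29 and HFR1), 4 rose in weedy and 3 in LED light against weed-free. The largest was the rise of HFR1, a regulator that restrains shade elongation, by 3.85 ± 0.20 on the log2 scale in weedy and 4.79 ± 0.20 in LED light (SE). Mesophyll markers were abundant, with a summed level of 40351.7 to 51762.7 TPM in weed-free, 31590.3 to 34310.8 in weedy and 57308.8 to 69443.9 in LED light, and 2 of the 4 fell in weedy light against weed-free. The 3 root markers and 4 of the 5 shoot meristem markers, STM and WUS among them, were listed at 0 in every library, and the 3 flower markers summed to at most 0.685 TPM. Of 6 tested markers of dividing cells none passed the threshold in any comparison, with 0, 1 and 2 at an unadjusted p under 0.05 in the biological, artificial and direct comparison. Of 3 tested vascular markers, APL, a phloem regulator, fell by 0.53 on the log2 scale in weedy light against weed-free, while SUC2 stood at 0.27 without passing. Between weedy and LED light APL was lower (-0.59) and SUC2 higher (0.69), both past the threshold, so that the vascular markers did not move together. The libraries numbered 3 stood apart in clock genes: ELF4, an evening gene, was at 449 TPM in weed-free replicate 3 and 439 in weedy replicate 3, against 104 to 143 in the other 4 libraries of these treatments, and at 80.2 TPM in LED replicate 3 against 3.27 and 3.86. Harvest time is not given in the sources used here. Reads per library recovered from the authors' normalized counts ran from 1683076 to 5025090. These are only the reads counted to genes there, and the paper lists far more mapped reads for each library.

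The 10 genes spanned a wide range of levels. ARR4 was the most abundant, with 53.0 to 134 TPM over the 9 libraries, and its lowest library lay above the highest of any other member. ARR9, ARR7, ARR8, ARR6 and ARR5 followed at mean levels of 20.7, 20.4, 16.2, 13.8 and 9.54 TPM, and each overlapped its neighbour in this order. The lowest library of ARR5 (6.27 TPM) lay above the highest of CKX5 (5.86 TPM). CKX5, CKX6, ARR15 and CKX4 were the least abundant, at mean levels of 4.03, 2.76, 2.05 and 1.82 TPM, again with overlapping libraries. The deposited coverage ran from 181 to 779 for ARR4 but only from 2.54 to 28.1 for ARR15, 3.40 to 18.2 for CKX4 and 2.17 to 38.3 for CKX6, so that fewer reads stand behind the values of these 3 genes.

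**Figure D1:**
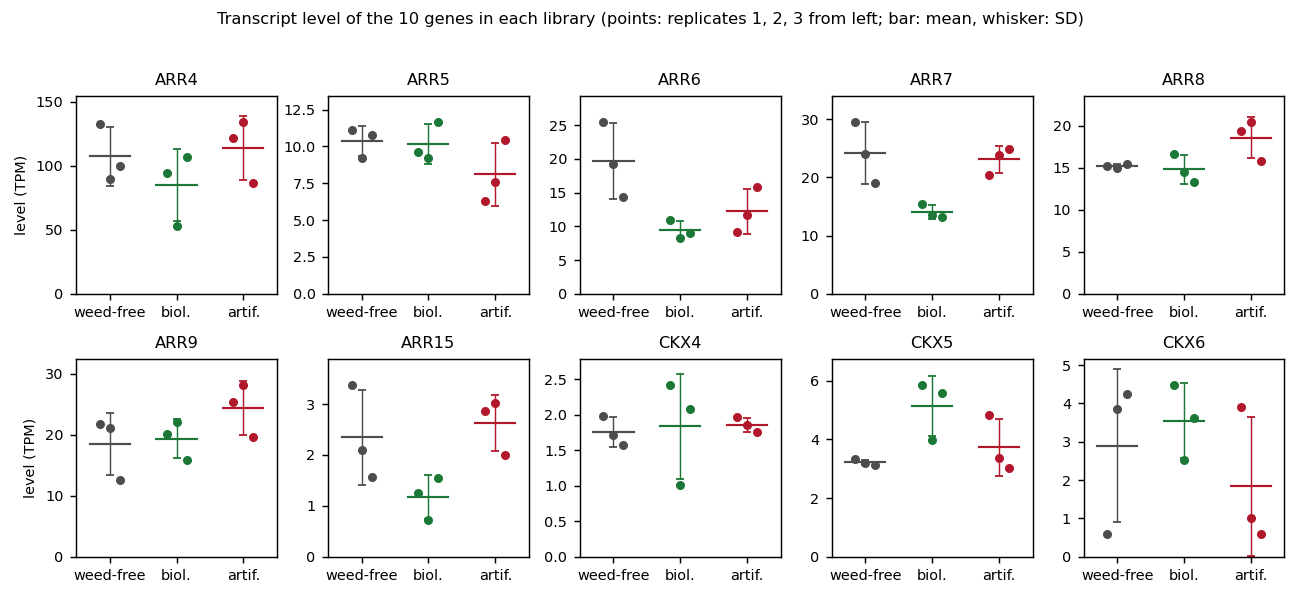
TPM (vertical axis, from 0, a separate scale per gene) of each gene in the 3 libraries of each treatment, with points for replicates 1, 2 and 3 from left to right, bars for means and whiskers for SD. All 3 weedy light libraries lie below all 3 weed-free libraries for ARR6, ARR7 and ARR15, and above them for CKX5.

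Because transcripts of ARR6, ARR7 and ARR15 differed between treatments, the 250 bases before the annotated start of each are shown with those of ARR5, the closest relative of ARR6. Capitals mark AGATT and AGATC on either strand (AATCT and GATCT as read here), short words that hold the core bound by type-B regulators such as ARR1. The sequences are RefSeq's, TAIR10.1, 5′ to 3′ on the minus strand, on which all 4 genes lie: chr5:25254319-25254568 for ARR6, chr1:6579315-6579564 for ARR7, chr1:28133026-28133275 for ARR15 and chr3:17760951-17761200 for ARR5.
ARR6: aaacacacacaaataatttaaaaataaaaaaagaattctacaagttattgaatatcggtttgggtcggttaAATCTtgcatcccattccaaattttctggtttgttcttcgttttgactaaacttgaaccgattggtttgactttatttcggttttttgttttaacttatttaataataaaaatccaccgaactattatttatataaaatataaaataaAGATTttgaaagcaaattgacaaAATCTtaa
ARR7: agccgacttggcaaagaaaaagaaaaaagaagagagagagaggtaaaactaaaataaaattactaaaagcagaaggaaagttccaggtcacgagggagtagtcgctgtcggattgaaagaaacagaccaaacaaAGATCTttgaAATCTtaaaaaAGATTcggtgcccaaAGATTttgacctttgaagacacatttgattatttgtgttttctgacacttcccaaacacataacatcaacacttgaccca
ARR15: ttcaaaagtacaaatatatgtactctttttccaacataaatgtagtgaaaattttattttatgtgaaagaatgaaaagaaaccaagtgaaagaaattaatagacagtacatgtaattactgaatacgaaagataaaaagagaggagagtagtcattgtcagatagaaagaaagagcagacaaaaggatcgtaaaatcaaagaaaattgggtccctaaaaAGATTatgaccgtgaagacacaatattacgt
ARR5: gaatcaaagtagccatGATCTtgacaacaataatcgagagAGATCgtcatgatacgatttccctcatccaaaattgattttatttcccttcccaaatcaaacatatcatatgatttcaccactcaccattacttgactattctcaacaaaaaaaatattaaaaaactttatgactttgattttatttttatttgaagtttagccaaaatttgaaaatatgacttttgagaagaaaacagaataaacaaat
ARR7 held 5 matches, counting AGATCT as 2 since it reads the same on both strands, ARR6 held 3, ARR5 2 and ARR15 1. Of 27437 promoters of protein-coding genes with the same window, 2.52% held at least 5 matches, 18.3% at least 3, 40.8% at least 2 and 73.2% at least 1. The other members held 1 (ARR4, ARR8 and CKX5), 2 (ARR9), 5 (CKX6) and 0 (CKX4) matches, and no member held the phytochrome-interacting factor word CACGTG, which was in 6.49% of promoters. A match is a description of these letters and not of a binding site.

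The first comparison asked which of the 10 genes differed between weedy light and weed-free leaves. ARR6 and ARR7 fell, and the other 8 genes did not pass the threshold. ARR6, an early cytokinin response gene, was at 25.5, 19.3 and 14.3 TPM in weed-free replicates 1 to 3 and at 10.97, 8.30 and 9.04 TPM in weedy light. All 3 weedy libraries were thus below all 3 weed-free libraries. Its level was 2.03-fold lower, a log2 difference of -1.02 ± 0.24 (SE, n = 3 against 3, limma adjusted p = 0.0312). ARR7, which acts with ARR15 in the shoot meristem and is also made in leaves, was at 29.6, 23.9 and 18.9 TPM in weed-free and at 15.4, 13.5 and 13.2 TPM in weedy light. Here too no library of one treatment reached into the other, and the log2 difference was -0.76 ± 0.17, which is 1.69-fold lower (limma adjusted p = 0.0245). Whether fewer cells of a type or less RNA per cell lay behind a lower level cannot be told apart in whole-leaf RNA.

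Among all genes tested, 2.86% were lower and 4.92% higher in this comparison, beside 2 of 10 lower and 0 of 10 higher among the members, which were chosen with earlier results known. The median log2 difference of the 10 was -0.04 and that of all genes 0.14, so that relative to the median gene ARR6 stood at -1.16 and ARR7 at -0.90. ARR15 and CKX5 also had treatments that did not overlap, as did 28.7% of all genes tested. ARR15 was at 3.38, 2.09 and 1.57 TPM in weed-free and at 1.26, 0.71 and 1.55 TPM in weedy light. Its log2 difference of -0.93 ± 0.33 missed the threshold (limma adjusted p = 0.0964). It passed without weed-free replicate 3 (-1.17, adjusted p = 0.048) and without the 3 libraries numbered 3 (-1.39, 0.0203). Over all genes the first of these fits called 2305 higher and 515 lower and the second 3329 and 1609. With all libraries 953 and 555 were called. CKX5 was nearly even in weed-free, at 3.31, 3.21 and 3.14 TPM, and stood at 5.86, 3.98 and 5.59 TPM in weedy light. The 1.56-fold difference between them, 0.64 ± 0.21 on the log2 scale, did not pass either (limma adjusted p = 0.0798). The exact two-sided permutation test gave p = 0.1 for each of these 4 genes, the smallest that 3 libraries against 3 allow.

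For the remaining members the groups overlapped. ARR4 was at 133, 89.2 and 99.6 TPM in weed-free and at 93.997, 53.0 and 107 TPM in weedy light, with a 95% interval of the log2 difference from -0.999 to 0.234. ARR5, the relative of ARR6, did not pass the threshold: its mean of 10.2 ± 1.33 TPM (SD, n = 3) lay within the spread of the 10.4 ± 1.02 TPM of weed-free, and the interval ran from -0.44 to 0.38. The coding sequences of ARR5 and ARR6 are 82.3% identical and share no word of 50 bases. ARR8 was at 15.2 ± 0.20 TPM in weed-free and 14.8 ± 1.70 TPM in weedy light, and ARR9 at 18.5 ± 5.11 and 19.4 ± 3.22 TPM. CKX4 was at 1.76 ± 0.21 and 1.84 ± 0.74 TPM. These intervals include 0, and they leave room for a change of either sign.

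Single libraries decided the calls against weed-free. ARR6 was not past the threshold without weed-free replicate 1 (adjusted p = 0.115), weed-free replicate 2 (0.11), weedy replicate 1 (0.086), weedy replicate 2 (0.0735) or weedy replicate 3 (0.0529), and ARR7 was not without weed-free replicate 1 (0.103), weed-free replicate 2 (0.0923), weedy replicate 1 (0.0696) or weedy replicate 2 (0.0547). Their log2 differences stayed between -1.23 and -0.82 for ARR6 and between -0.92 and -0.60 for ARR7 over the 9 fits that each lack a library. Calls over all genes also changed, from 953 higher and 555 lower with all libraries. They were 126 and 28 without weed-free replicate 1, 151 and 50 without weed-free replicate 2, and 130 and 52 without weedy replicate 1. Without weedy replicate 2 they were 748 and 259, and without weedy replicate 3 1060 and 1126.

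The same question was asked of LED light against weed-free. None of the 10 genes passed the threshold by limma, with 1 of them, ARR6, at an unadjusted p under 0.05. On reads recovered from the count table, which may not measure these members (as described with that table), edgeR and DESeq2 called 0 of the 5 and 4 members they tested. Among all genes 1.12% were lower and 2.05% higher. ARR6 was at 9.10, 11.7 and 15.8 TPM in LED light, so that its replicate 3 lay among the weed-free libraries. The log2 difference was -0.68 ± 0.24 (limma adjusted p = 0.138), and without LED replicate 3 it became -0.89 (adjusted p = 0.0307). Over all genes that fit called 943 higher and 1119 lower, against 397 and 218 with all libraries. ARR7 was at 20.4, 23.9 and 24.9 TPM, within the range of weed-free, with a log2 difference of -0.05 and a 95% interval from -0.41 to 0.32. ARR15 was at 2.87, 3.02 and 1.99 TPM, also within that range, with an interval from -0.52 to 0.92.

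ARR8, a type-A regulator whose transcript answers weakly to cytokinin, was the only member whose libraries did not overlap in this comparison, beside 27.5% of all genes. It was at 15.19, 15.01 and 15.41 TPM in weed-free and at 19.4, 20.5 and 15.8 TPM in LED light. The 1.21-fold difference did not pass the threshold (limma adjusted p = 0.289). Its relative ARR9, whose coding sequence is 82.7% identical, was at 21.7, 21.1 and 12.6 TPM in weed-free and 25.4, 28.2 and 19.6 TPM in LED light, an overlap (adjusted p = 0.326). In each treatment ARR9 was lowest in replicate 3, the replicate in which ELF4 was highest. ARR9 is known as a clock-regulated transcript, and the part of harvest time in these values was not tested. ARR5 was at 6.27, 7.58 and 10.4 TPM in LED light against 11.1, 9.20 and 10.7 TPM in weed-free (adjusted p = 0.294). Without the 3 libraries numbered 3, ARR5 and ARR6 were both past the threshold and lower (adjusted p = 0.0476 and 0.00876). Of all 19384 genes tested, 1889 were then called higher and 1275 lower, against 397 and 218 with all libraries. ARR4 at 121, 134 and 86.2 TPM, CKX4 at 1.97, 1.85 and 1.76 TPM and CKX5 at 4.81, 3.35 and 3.01 TPM overlapped weed-free. Clock genes also differed here: 0 of 9 passed by limma, but 7 were at an unadjusted p under 0.05 and 8 had libraries that did not overlap. The median log2 difference was -1.52, but the genes went in both directions. CCA1, LHY and PRR9 were higher in LED light (2.96, 2.66 and 1.88). ELF4, TOC1, PRR5, PRR7, GI and LUX were lower (-4.25 to -0.32). PRR5, a clock repressor, was at 44.7 to 54.8 TPM in weed-free and at 0.58, 0.45 and 43.9 TPM in LED light. Their part in the differences between LED light and weed-free was not tested.

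The third comparison set the 2 sources of low R:FR side by side at the same ratio. ARR7 and ARR15 were lower in weedy than in LED light, and in both genes the libraries did not overlap. The level of ARR7 was 1.64-fold lower, -0.71 ± 0.17 on the log2 scale (limma adjusted p = 0.00806). That of ARR15 was 2.19-fold lower, -1.13 ± 0.33 (limma adjusted p = 0.0215), at levels of 0.71 to 1.55 TPM against 1.99 to 3.02 TPM. The coding sequences of ARR7 and ARR15 are 74.9% identical and share no word of 50 bases. Many genes differed between these treatments: 12.5% of all genes tested were lower and 21.9% higher in weedy light, and the libraries did not overlap for 51.3%, against 2 of 10 members lower, 0 higher and 2 not overlapping. The count of lower members is near that background.

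ARR7 kept its call in all 9 fits that leave out a library, with adjusted p from 0.00361 to 0.0326. ARR15 lost it without weedy replicate 1 (0.0516), weedy replicate 2 (0.0659), LED replicate 1 (0.0741) or LED replicate 2 (0.0742). CKX5 passed only without weedy replicate 2, at 0.64 higher in weedy light (adjusted p = 0.0427), and stood at 0.46 with all libraries (0.105). Without LED replicate 3, 4 members passed, and without all 3 libraries numbered 3, 5 passed: ARR7, ARR15, ARR8 (-0.36, adjusted p = 0.036) and ARR9 (-0.34, 0.0351), all lower in weedy light, and ARR5, which was higher (0.44, 0.0496). Of all 19384 genes tested, 4140 were called higher and 2246 lower without LED replicate 3. Without the libraries numbered 3 these were 4900 and 3276. With all libraries, ARR8, ARR9 and ARR5 stood at -0.32, -0.33 and 0.35 and missed the threshold (adjusted p = 0.0903, 0.272 and 0.17). Clock genes moved with this comparison too, with 4 of 9 higher and 2 lower in weedy light and a summed clock level of 403 to 796 TPM against 129 to 264 TPM, and 3 of the 4 mesophyll markers were lower. Their part in the member differences was not tested.

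**Figure D2:**
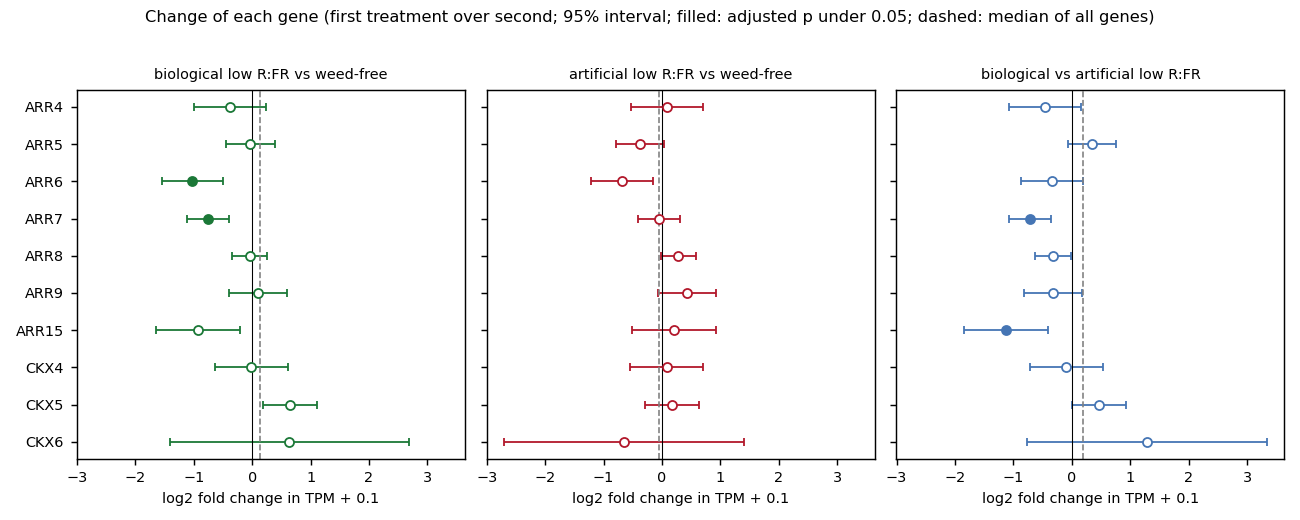
Log2 difference in TPM + 0.1 (horizontal axis) of each gene in the 3 comparisons, with 95% intervals, filled points for an adjusted p under 0.05, a solid line at 0 and a dashed line at the median of all genes tested. The 4 filled points are ARR6 and ARR7 at -1.02 and -0.76 in weedy light against weed-free, and ARR7 and ARR15 at -0.71 and -1.13 in weedy against LED light.

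**Figure D3:**
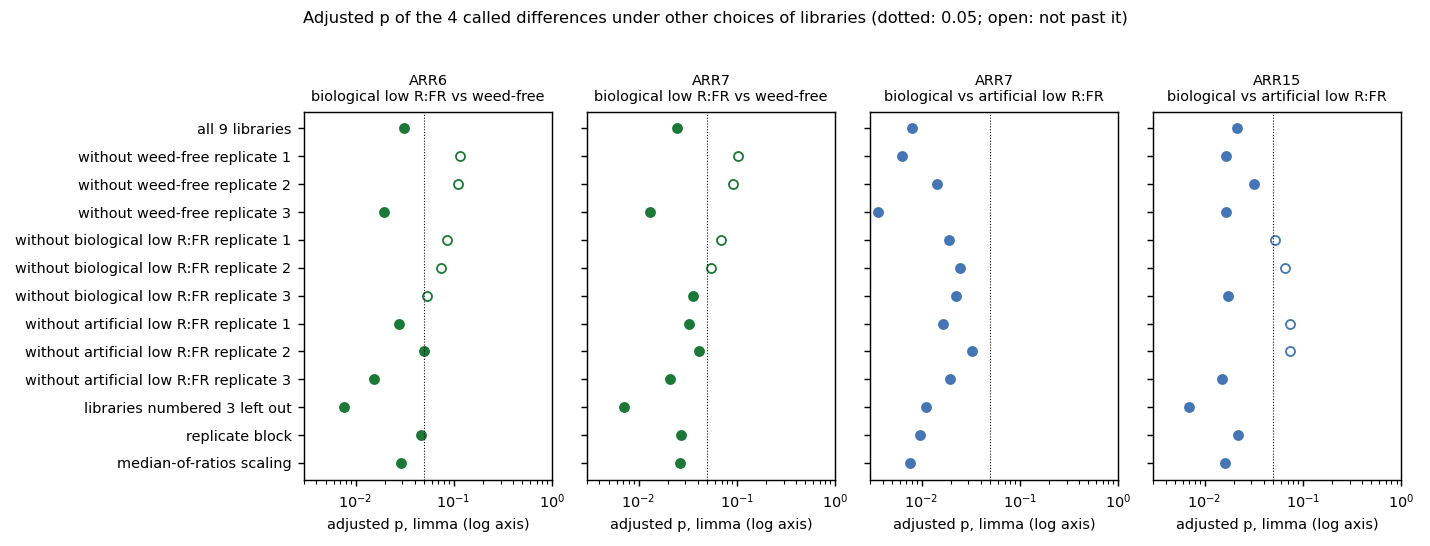
Adjusted p (horizontal, log axis, dotted line at 0.05) of the 4 called differences with all 9 libraries, without each library and under 3 other settings. The difference of ARR7 between weedy and LED light stays left of the line in every setting shown, and the other 3 cross it when single libraries are left out.

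The 3 member oxidases gave no call in any comparison with all libraries, and CKX6 varied most of all members. CKX6 was at 0.60, 3.84 and 4.23 TPM in weed-free, at 4.49, 2.53 and 3.61 TPM in weedy and at 3.91, 1.01 and 0.59 TPM in LED light. Libraries at the low end were thus found in weed-free and in LED light alike. The 95% interval of its log2 difference ran from -1.41 to 2.69 in weedy and from -2.70 to 1.40 in LED light against weed-free, so that a change of several fold in either direction could not be detected here. CKX6 lies on chromosome 3 (TAIR10.1, 23424157 to 23426536, plus strand), and 1836 of its 2007 exonic bases (91.5%) are also exonic in AT3G63445, a long noncoding RNA gene of the minus strand. AT3G63445 was listed at 6.63 to 15.7 TPM, above CKX6 in each of the 9 libraries. Whether the TPM values used strand is not given in the sources used here, and reads of the 2 genes may not be separable.

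Overlaps of this kind touched other members too. ARR6 (chromosome 5, 25252007 to 25254318, minus strand) shares 348 exonic bases, 23.9% of its own, with AT5G62910 on the plus strand. AT5G62910 was at 19.8 to 23.6 TPM in weed-free and 22.4 to 23.6 TPM in weedy light while ARR6 fell. In LED light AT5G62910 was at 15.5, 16.7 and 21.2 TPM, where ARR6 was at 9.10, 11.7 and 15.8 TPM. The levels of the 2 genes correlated at r = 0.07 over the 9 libraries, and the part of AT5G62910 in the ARR6 values was not tested. CKX5 (chromosome 1, 28314458 to 28318375, minus strand) shares 347 bases, 12.7% of its own, with the ubiquitin-conjugating enzyme gene UBC16. UBC16 was at 6.08 to 8.46 TPM in weed-free and 7.40 to 14.8 TPM in weedy light and at 9.83, 13.3 and 12.0 TPM in LED light, where CKX5 was at 3.01 to 4.81 TPM, and the levels of the 2 genes correlated at r = 0.13 over the 9 libraries. CKX5 also shares 243 bases with AT1G09553, a noncoding gene of its own strand, which was at 0.105 to 0.248 TPM in weed-free, 0.374 to 0.576 TPM in weedy and 0.254 to 0.518 TPM in LED light (r = 0.58). The part of either gene in the CKX5 values was not tested. ARR8 and ARR9 overlap noncoding genes listed at 0 or at no more than 0.374 TPM. ARR4 (chromosome 1, 3441988 to 3444360), ARR7 (chromosome 1, 6577833 to 6579314), ARR15 (chromosome 1, 28131447 to 28133025), ARR5 and CKX4 share no exonic base with another annotated gene.

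**Figure D4:**
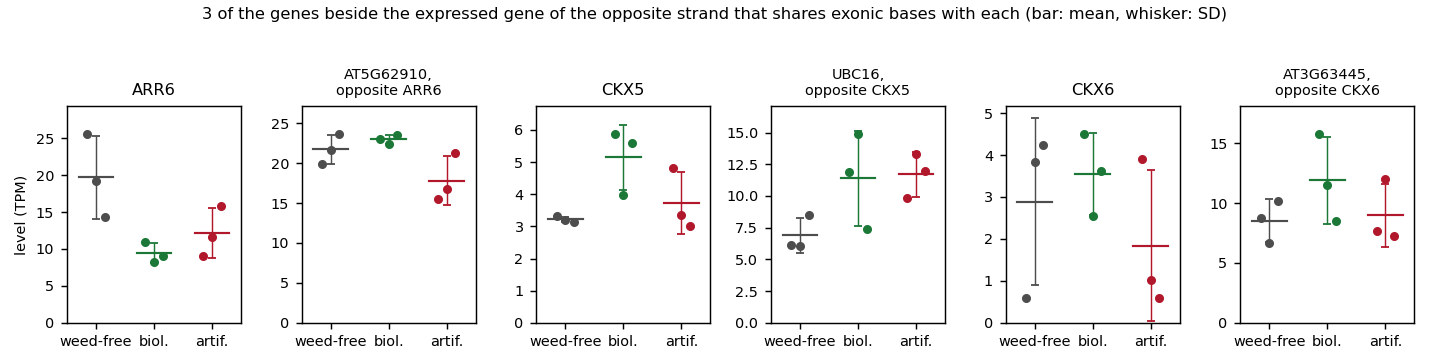
TPM (vertical axes, from 0) of ARR6, CKX5 and CKX6 beside the expressed gene that shares exonic bases with each on the opposite strand, as points per library with mean and SD. In weedy light ARR6 is lower while AT5G62910 lies between 22.4 and 23.6 TPM, and in LED light AT5G62910 lies between 15.5 and 21.2 TPM. CKX6 spreads from 0.59 to 4.49 TPM.

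The authors' count table did not follow these levels. It holds 7 of the 10 members and not ARR5, ARR7 or ARR15. ARR4, the most abundant member by TPM, had 15 to 59 recovered reads per library, ARR9 had 4 to 16, ARR8 1 to 16 and CKX4 0 to 15. The 3 members with an expressed gene on the opposite strand had far more, namely 119 to 436 for ARR6, 153 to 690 for CKX5 and 137 to 467 for CKX6, although their TPM was lower than that of ARR4. On these counts the ARR6 difference between weedy light and weed-free was -0.18 by limma (adjusted p = 0.572). The strand setting of the counting is not given in the sources used here, so this value may hold reads of AT5G62910, and the counts may not measure the members. No result here rests on them, and the reason for the differing order of the members in counts and TPM was not tested.

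Of 63 other cytokinin genes on lists fixed by pathway step, 37 were tested. In weedy light against weed-free 2 rose and 2 fell, in LED light 0 rose and 2 fell, and between weedy and LED light 11 were higher and 3 lower. Of all genes tested, 4.92% rose and 2.86% fell in the first, 2.05% and 1.12% in the second, and 21.9% were higher and 12.5% lower in the third. The median log2 difference of the 37 was 0.06, -0.11 and 0.08 in the 3 comparisons, beside 0.14, -0.05 and 0.19 for all genes. ARR16, another type-A regulator, was the only gene of these lists that passed the threshold as lower than weed-free in both treatments. It was at 11.4, 8.44 and 10.03 TPM in weed-free, at 5.96, 3.97 and 4.07 TPM in weedy and at 5.47, 5.55 and 3.98 TPM in LED light. No low R:FR library reached the weed-free range, and the log2 differences were -1.09 ± 0.20 and -0.99 ± 0.20 (limma adjusted p = 0.0156 and 0.0316). Without weed-free replicate 1 the first was not past the threshold (0.0734), and the second was past it in 12 of 19 alternatives. CRF2, a cytokinin response factor, also had no overlap with weed-free in either treatment. Its log2 differences of -0.63 and -0.71 did not pass (limma adjusted p = 0.0619 and 0.0642). ARR3 and ARR17 were listed at no more than 0.072 TPM and were not tested.

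Upstream of the response regulators, 2 of 6 tested type-B genes, 2 of 3 receptor genes and 1 of 4 tested phosphotransfer genes were higher in weedy than in LED light, a comparison in which 21.9% of all genes were higher. Of these genes ARR1 also rose against weed-free. ARR1, a type-B transcription factor that switches on type-A genes, was at 10.2, 11.1 and 13.1 TPM in weed-free, at 19.1, 17.5 and 17.4 TPM in weedy and at 9.70, 10.7 and 8.91 TPM in LED light. All weedy libraries lay above all others. It rose by 0.66 ± 0.14 against weed-free (limma adjusted p = 0.0216) and was higher by 0.88 ± 0.14 than in LED light (0.00125). The first was not past the threshold without weed-free replicate 1, weed-free replicate 2 or weedy replicate 1 (highest adjusted p = 0.1). ARR11, another type-B factor, was higher in weedy than in LED light by 0.73 (limma adjusted p = 0.0388, kept in 12 of 19 alternatives and lost with median-of-ratios scaling), and 4 other tested type-B genes did not pass in any comparison. The receptor genes AHK2 and AHK3 were higher in weedy than in LED light by 0.71 and 0.60 (limma adjusted p = 0.0214 and 0.0412, kept in 14 and 12 of 19 alternatives), and AHK4 did not pass. Of 4 tested phosphotransfer genes AHP5 passed, at 0.46 higher in weedy than in LED light (kept in 16 of 19 alternatives), but not with median-of-ratios scaling.

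KMD F-box proteins mark type-B regulators for degradation. KMD1 was at 27.4, 28.8 and 22.6 TPM in weed-free, 68.5, 64.4 and 35.3 TPM in weedy and 13.5, 15.3 and 16.1 TPM in LED light. The 3 treatments did not overlap. KMD1 rose by 1.04 ± 0.22 in weedy light against weed-free (limma adjusted p = 0.0252, kept in 13 of 19 alternatives). This call was lost with median-of-ratios scaling and with limma without trend and robust variance. The level of KMD1 was 1.85 ± 0.22 higher in weedy than in LED light (limma adjusted p = 0.000566, kept in 19 of 19). KMD4 was higher by 0.67 in the latter comparison (0.0242, kept in 14 of 19 and lost with median-of-ratios scaling), and KMD2 did not pass in any.

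Of hormone supply, IPT3, a nitrate-responsive enzyme of cytokinin synthesis, had the lowest p of the pathway. IPT3 was at 21.4, 19.1 and 17.6 TPM in weed-free, at 9.43, 11.6 and 7.34 TPM in weedy and at 26.9, 27.5 and 38.5 TPM in LED light. Weedy libraries were thus lowest and LED libraries highest, with no overlap among the 3 treatments. The level fell by 1.05 ± 0.19 on the log2 scale in weedy light against weed-free (limma adjusted p = 0.0136), stood 0.66 ± 0.19 above it in LED light without passing (0.0809), and was 1.71 ± 0.19 lower in weedy than in LED light (0.000373). Against weed-free the call was not past the threshold without weed-free replicate 1, weed-free replicate 2 or weedy replicate 1 (highest adjusted p = 0.0688). The other 3 tested synthesis genes and the 3 tested LOG genes, which release the active hormone, did not pass in any comparison.

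Of removal and transport, CKX7, the cytosolic oxidase, was lower in weedy (7.02 ± 0.48 TPM) than in LED light (11.7 ± 1.14 TPM) by 0.72 on the log2 scale (limma adjusted p = 0.00265). CKX1, CKX2 and CKX3 stayed at or under 0.547 TPM and were not tested. UGT76C1, which puts a glucose on cytokinin, and PUP14, which carries cytokinin across the plasma membrane, were higher by 0.52 and 0.81 in weedy than in LED light (0.019 and 0.00398, kept in 16 and 19 of 19 alternatives). ABCG14, which exports root cytokinin to the shoot, did not pass in any comparison. Of the cytokinin response factors, CRF4 fell by 1.29 ± 0.26 in LED light against weed-free (limma adjusted p = 0.0305, kept in 11 of 19 alternatives). CRF4 was at 3.38, 3.11 and 3.54 TPM in weed-free and at 1.09, 0.92 and 2.16 TPM in LED light, and the part of the clock shift of this comparison in that call was not tested. Between weedy and LED light, CRF4 and CRF6 were higher by 1.099 and 0.67 and CRF3 was lower by a log2 difference of -0.79 (0.00974, 0.0266 and 0.0353). The 3 calls were kept in 19, 14 and 13 of 19 alternatives, and that of CRF6 was lost with median-of-ratios scaling.

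**Figure D5:**
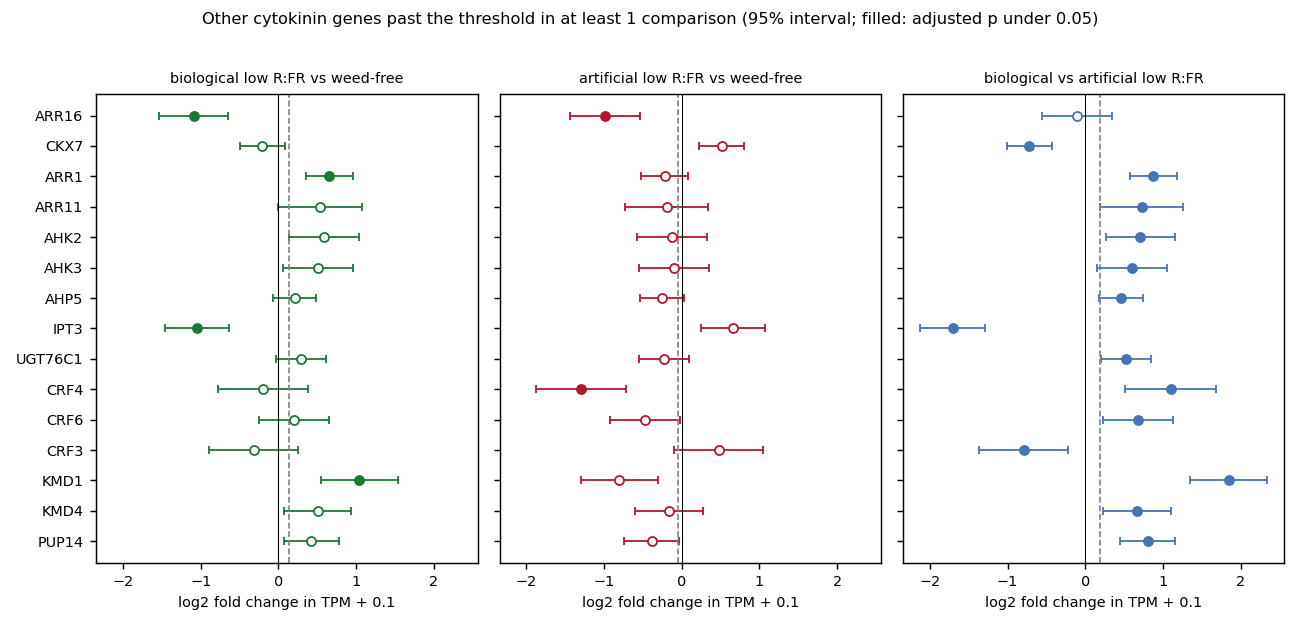
Log2 difference in TPM + 0.1 (horizontal axis) with 95% intervals of the 15 other cytokinin genes past the threshold in at least 1 comparison, filled where the adjusted p was under 0.05, with a solid line at 0 and a dashed line at the median of all genes tested. IPT3 lies at -1.05 and KMD1 at 1.04 in weedy light against weed-free, and ARR16 lies at -1.09 and -0.99 in the 2 treatments.

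The genes most like the called members across the 9 libraries were named by the highest Pearson correlation of log2(TPM + 0.1). For ARR6 this was CDT1B (AT3G54710), a replication licensing gene listed at 0.346 to 0.847 TPM (r = 0.946). For ARR7 it was AT4G19400 (r = 0.962), which was listed at 0 in the 3 weedy libraries and at 0.634 to 4.03 TPM in the others. For ARR15 it was AT2G19940 (r = 0.975), at 14.2 to 18.8 TPM. Among the members themselves, ARR7 correlated with ARR6 at r = 0.818 and with ARR15 at r = 0.824, and ARR4 with ARR15 at r = 0.885. Other pairs went the opposite way, with ARR5 at r = -0.825 to ARR8 and -0.718 to ARR9, and ARR7 at r = -0.718 to CKX5. All these values are over the same 9 libraries from which the differences above were taken.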

How the data were processed

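Leaf RNA libraries were made with a TruSeq RNA kit, 3 per treatment. Per the submitters' processing notes reads were aligned with Bowtie2 2.4.3, counted with HTSeq 0.13.5 and scaled with DESeq2 1.30.1. The authors deposited TPM and coverage signal per library (37363 genes, program not given in the sources used here) and normalized counts for 16601 genes, each a whole number of reads over a size factor (100% at a tolerance of 1e-06). Tables of the authors' comparisons hold fold changes and p-values and were not used.

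The 10 members were read from the TPM tables by locus. All genes with at least 0.5 TPM in at least 3 libraries (19384) were fitted as log2(TPM + 0.1), a scale that understates changes of low genes, with limma 3.58.1 (R 4.3.3, trended, robust variance) in a single fit to the 9 libraries, with Benjamini-Hochberg adjustment over all genes and a threshold of 0.05, two-sided. TPM keeps no depth, so the precision of low genes was read from coverage. On simulated data of 19384 genes with changes in weedy light, this fit recovered 56% of 2-fold and 88% of 4-fold changes with 10 false calls. Changes were put only into genes above a minimum mean TPM, and CKX4 (mean 1.82 TPM) lay under it. Noise was drawn independently for each library, so a shift shared by the libraries numbered 3 was not simulated. The shares may differ in the real libraries. Recovered reads were tested with edgeR 4.0.16 and DESeq2 1.42.0 as alternatives. Positions, overlaps and promoters are from RefSeq TAIR10.1, the assembly of the study, where the 10 members had the same start and end as in the TPM tables. Named are the 10 members, up to 4 genes per pathway list past the threshold by smallest adjusted p, marker, clock and shade genes that moved with a result, and the best correlated gene of each called member. CRF2 is named for comparison with ARR16. Members and lists were chosen with earlier results of these data known.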

Additional observations from a re-analysis of the deposited data

How the results depend on the processing

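In weedy light against weed-free the count of members called was 2. It was 1 with no filter on low values, 0 with limma without trend and robust variance, 3 without the libraries numbered 3, 0 to 3 over the fits that leave out a library, and 0 on the normalized counts with limma (4 members tested) and on recovered reads with edgeR (5) and DESeq2 (4). In LED light the count of 0 became 2 without the libraries numbered 3 and was 0 to 1 when a library was left out. In the direct comparison the count of 2 became 5 without the libraries numbered 3 and 1 to 4 when a library was left out. It was 0 on the normalized counts, with edgeR and with DESeq2. ARR7 and ARR15, called there, are not in the count table, so the count fits could not call them. The same holds for ARR7 in weedy light against weed-free. Over all 19384 genes tested, the fit without the libraries numbered 3 called 3329 higher and 1609 lower in weedy light against weed-free. It called 1889 and 1275 in LED light, and 4900 and 3276 in the direct comparison. The cause of the other changes in these counts was not tested. Median-of-ratios scaling kept the counts at 2 in weedy light and 0 in LED light, gave 3 in the direct comparison, where ARR8 passed (-0.51, limma adjusted p = 0.0209), and moved the share of higher calls over all genes from 63.2% to 44.3% in weedy light against weed-free and from 63.7% to 46.9% in the direct comparison.

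With the replicate number as a block the counts were 2, 0 and 2 and no member call changed. Correlations of same-numbered libraries of different treatments ran from -0.002 to 0.24, and 6 of 9 pairs were over 0.1. Between the libraries numbered 3 they were 0.194, 0.24 and 0.156. Pairs of a library numbered 3 with one of another number were all negative, from -0.208 to -0.014. The paper describes 3 independent experiments, so the numbers may stand for a pairing that the main fit leaves out. Over all genes of LED light against weed-free the block raised the calls from 397 higher and 218 lower to 801 and 651.

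Of the 30 member differences 13 changed sign in some setting, and none of these was called. Leaving out a library gave -0.048 to 0.27 for ARR4, -0.21 to 0.11 for ARR7, -0.041 to 0.49 for ARR15 and -0.018 to 0.31 for CKX5 in LED light against weed-free. It gave -0.13 to 0.029 for ARR8, -0.13 to 0.038 for ARR5, -0.16 to 0.23 for ARR9, -0.22 to 1.099 for CKX6 and -0.25 to 0.34 for CKX4 in weedy light against weed-free, and -0.33 to 0.27 for CKX4 in the direct comparison. With median-of-ratios scaling ARR7 in LED light was at 0.008 and ARR9 in weedy light at -0.038. Without the libraries numbered 3, ARR8 and ARR9 in weedy light were at 0.039 and -0.021 and CKX6 in LED light at 0.35. A pseudocount of 1 put CKX4 in weedy light at 0.009. On the count table, limma, edgeR and DESeq2 gave -0.20, -0.24 and -0.22 for ARR4 in LED light, and -0.22, -0.20 and -0.21 for CKX5 and 0.024, 0.024 and 0.017 for ARR6 in the direct comparison. There ARR9 in weedy light was at -0.084 with edgeR and -0.083 with DESeq2, and ARR8 at 0.33 with DESeq2. ARR15, CKX4 and CKX6 had the lowest coverage of the members, and its part in their spread was not tested.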
